A study of Mus musculus with 6 samples.

Results

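Macrophage marker genes were followed in the forestomach epithelium of control and Sox2 mutant mice. The 8 genes were Cd68, Csf1r, Cd14, Mrc1, Itgam, Aif1, Fcgr3 and Cd163. They were measured by every array probe that the scanner files name for one of them, 13 probes of the 41174 gene probes on the array. All 13 probes entered the test, which required a sample signal well above background on at least 3 of the 6 arrays, and the 8 genes stood among 20564 tested genes. One Csf1r probe met that filter on the mutant arrays alone. Of the 8, 7 were higher on average in the mutant sheets and 2, Cd68 and Csf1r, passed the test.

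The RNA came from epithelial sheets of the forestomach of 12-week-old mice, a 129/Sv and C57/BL6 mixture, with 3 arrays per genotype. Controls carried K5-CreER and mutants carried K5-CreER;Rosa26Sox2/Sox2, and both received 2 doses of tamoxifen at 7 weeks. K5-CreER is a tamoxifen-dependent Cre recombinase under the keratin 5 promoter, which marks the basal cells of squamous epithelium, so the allele was aimed at the epithelium and not at leukocytes. Each sheet RNA was labelled with Cy5 and hybridised together with Cy3-labelled Universal Mouse Reference RNA, a pool from 11 mouse cell lines. Levels are therefore log2 ratios of sample over reference, and a difference is the mean of the mutants minus the mean of the controls. No label says whether animals were pooled, so the p-values measure the spread between these arrays, part of which may be technical.

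Macrophages are phagocytes that engulf microbes and dying cells, and most tissues hold a resident population of them beside cells that enter from the blood as monocytes. Their survival depends on the receptor Csf1r, which binds the ligands Csf1 and Il34, and their identity on the ETS transcription factor PU.1, encoded by Spi1. Cd68 lies in the membrane of the lysosome, Cd14 and the integrin subunit Itgam take part in the recognition of microbes, Fcgr3 binds antibody-coated targets, Mrc1 and Cd163 are endocytic receptors typical of resident macrophages, and Aif1 encodes the actin-binding protein Iba1. Several of these genes are not private to macrophages: neutrophils and monocytes also express Itgam, Fcgr3 and Cd14.

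The probe of Cd68 and 1 probe each of Aif1 and Fcgr3 are shown because their genes gave the larger of the 2 called differences, the only negative difference, and a difference that was larger on the dimmer probe, shown here, than on the brighter. Each is 60 bases, written 5′ to 3′ on the strand of the transcript in lower case. Positions are in mm9, the build that the file headers name. The Cd68 probe lies at chr11:69478314-69478373 on the minus strand and starts at base 753 of the transcript. The Aif1 probe spans chr17:35308497-35308742 on the minus strand, 246 bases for 60 bases of probe, so it crosses an exon junction. The Fcgr3 probe lies at chr1:172984129-172984188 on the minus strand and spans no more than its own 60 bases.
Cd68 A_51_P120470: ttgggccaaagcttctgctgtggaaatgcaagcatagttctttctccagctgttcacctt
Aif1 A_52_P2754: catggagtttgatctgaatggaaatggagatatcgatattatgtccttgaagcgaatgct
Fcgr3 A_52_P408757: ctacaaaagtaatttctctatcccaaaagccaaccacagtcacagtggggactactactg

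Promoters are shown for Cd68, which rose, Mrc1 and Cd163, which followed each other over the arrays, and Aif1, which stood apart from all 3, with the 250 bases before the transcription start in lower case and the core letters bound by PU.1 in capitals. The sequences are those of RefSeq on GRCm38.p6, and entries were matched for 6 of the 8 genes. The letters searched were GAGGAA and, for the other strand, TTCCTC. They occurred in at least 1 promoter of 5 of the 6 genes and in 23.3% of 32851 mouse promoters of the same length. The Cd68 promoter is chr11:69666171-69666420 on the minus strand, that of Mrc1 chr2:14229164-14229413 on the plus strand, that of Aif1 chr17:35176053-35176302 on the minus strand and that of Cd163 chr6:124304401-124304650 on the plus strand.
Cd68 promoter: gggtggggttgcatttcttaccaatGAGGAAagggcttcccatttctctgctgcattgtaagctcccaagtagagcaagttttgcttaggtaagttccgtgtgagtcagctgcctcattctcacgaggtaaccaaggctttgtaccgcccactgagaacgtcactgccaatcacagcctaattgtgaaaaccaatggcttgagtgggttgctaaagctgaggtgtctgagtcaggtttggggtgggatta
Mrc1 promoter: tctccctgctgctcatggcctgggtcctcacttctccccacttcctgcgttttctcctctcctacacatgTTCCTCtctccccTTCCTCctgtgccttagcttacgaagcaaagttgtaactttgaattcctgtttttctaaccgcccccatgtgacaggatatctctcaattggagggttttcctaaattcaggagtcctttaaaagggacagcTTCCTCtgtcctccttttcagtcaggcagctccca
Aif1 promoter: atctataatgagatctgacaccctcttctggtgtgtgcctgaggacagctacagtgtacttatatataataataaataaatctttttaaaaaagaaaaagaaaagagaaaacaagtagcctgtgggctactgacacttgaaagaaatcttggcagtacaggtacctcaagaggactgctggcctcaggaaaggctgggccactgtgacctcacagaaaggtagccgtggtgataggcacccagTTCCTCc
Cd163 promoter: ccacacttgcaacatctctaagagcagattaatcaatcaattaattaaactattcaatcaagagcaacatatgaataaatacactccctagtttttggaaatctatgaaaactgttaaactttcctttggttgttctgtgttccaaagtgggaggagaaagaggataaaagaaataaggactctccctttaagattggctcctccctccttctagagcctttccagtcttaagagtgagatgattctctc

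In Cd68 the letters began 225 bases before the start, in Mrc1 180, 167 and 35 bases before it, and in Aif1 7 bases before it. Itgam held them 84 and 15 bases before its start, and the 2 promoter entries of Fcgr3 15 and 6 bases before theirs, which is the same stretch of genome. The Cd163 window did not hold these letters, although Cd163 and Mrc1 had the most alike profiles of any pair of members over the arrays (r = 0.986 over 6 arrays, which share the reference RNA). The match of letters is a description of these windows and not of binding. Spi1 itself was well above background on 1 of the 6 arrays and was not tested.

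The arrays differed in quality and likeness in ways that touch the members. Between 62.6% and 76.2% of gene probes were well above background, the lowest share being that of control 3, which lay on a slide of its own and was scanned on another day. Its median signal in the sample channel was 4.66 times the local background, against 11.3 to 12.4 times on the other arrays. Controls 1 and 2 shared a slide and the 3 mutants shared another, so genotype and slide cannot be told apart. Controls 1 and 2 were nearly alike, and so were mutants 2 and 3: the scaled median absolute deviation between their ratios was 0.156 and 0.104, against 0.326 to 0.730 for all other pairs. In the authors' deposited table, mutant 1's column correlated most with mutant 3's scanner file (r = 0.963) and mutant 3's column with that of mutant 1 (r = 0.957), so array names below follow the scanner files. The array's Sox2 probe did not check the genotype, because nothing in the labels tells if its target is part of the transgene: its difference was -0.43 (adjusted p = 0.143 by limma).

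Cd68 and Csf1r rose in the mutant sheets, and no member fell. Across all genes, 2.82% were called, 1.4% higher and 1.42% lower, at an adjusted p below 0.05, against 2 and 0 of the 8 members. The median difference of the 8 members was 0.88 on the log2 scale, against 0.0056 for all genes, and 7 of the 8 were positive against 50.6% of all genes. In 7 of the 8 genes the 3 mutant values lay wholly above the 3 control values, an arrangement found in 19.7% of all genes. At an unadjusted p below 0.05, 6 of the 8 members would have been counted, and 23.8% of all genes. More or fewer macrophages, and more or less of these transcripts in each, cannot be told apart in bulk RNA.

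**Figure D1:**
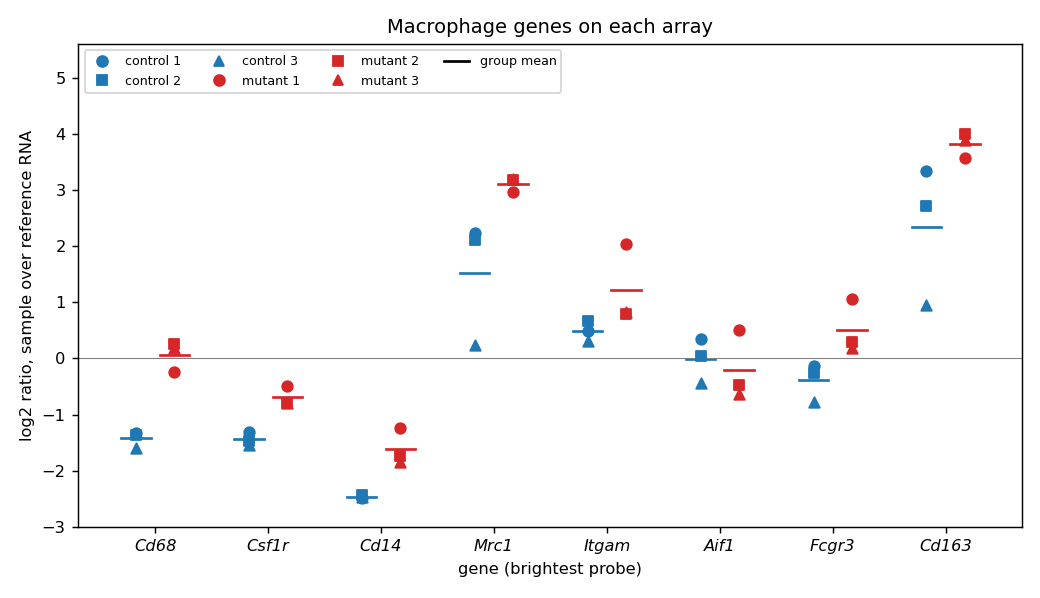
Log2 ratio of sample over reference RNA (vertical axis) for the brightest probe of each macrophage gene (horizontal axis), with controls in blue, mutants in red, a symbol for each replicate number and a bar at each group mean. The mutant values of Cd68 lie between -0.24 and 0.26, all above the controls, whereas those of Aif1 overlap the controls, and control 3 lies far below the other controls for Mrc1 and Cd163.

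Cd68, the lysosomal membrane protein, gave the firmest difference of the 8. Its log2 ratio was -1.32, -1.36 and -1.59 on controls 1 to 3 and -0.24, 0.26 and 0.18 on mutants 1 to 3. The groups did not overlap, and mutants 2 and 3 were the highest. The means were -1.43 ± 0.14 and 0.063 ± 0.27 (SD, n = 3 each). The difference was 1.49 with a standard error of 0.17 and a 95% confidence interval of 1.07 to 1.91, or 2.81-fold (adjusted p = 0.0168, limma with Benjamini-Hochberg adjustment over all genes). The rise was in the sample dye: after normalization the sample channel was 1.66 higher in the mutants and the reference channel 0.17 higher. The unnormalized sample signals were 6065, 5969 and 2098 in the controls and 15013, 24626 and 24770 in the mutants, well above background on every array.

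The call for Cd68 held in 14 of 21 other ways of processing, and its difference stayed between 1.39 and 1.69. It was lost without control 1 (1.54, adjusted p = 0.0836), control 2 (1.52, 0.0928), mutant 2 (1.39, 0.102) or mutant 3 (1.43, 0.105), with each near-identical pair of arrays averaged (1.45, 0.436) with the slide as a random block (1.52, 0.311) and with the replicate number as a block (1.49, 0.0592), in the same limma fit. The adjusted p ran from 4.3e-06 to 0.436 over the alternatives. Among the 21, quantile normalization of the mean intensities between arrays (Aquantile) leaves each ratio as it was, so it could only repeat the reported fit. The scan day as a term gave the same fit as leaving out control 3. These repeats are also within the counts of alternatives given for the other genes.

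Csf1r, the receptor of the macrophage growth factors, has 3 probes and they did not move alike. The brightest, near the end of the transcript, read -1.31, -1.47 and -1.54 on the controls and -0.50, -0.79 and -0.79 on the mutants. Mutant 1 was the highest and the groups did not overlap. The means were -1.44 ± 0.11 and -0.69 ± 0.17 (SD, n = 3 each), a difference of 0.75 with a standard error of 0.14, or 1.68-fold (adjusted p = 0.0489 by limma, 95% confidence interval 0.42 to 1.08). This probe lies at chr18:61290384-61290443 on the plus strand.

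The other 2 probes of Csf1r did not pass the same test run over all probes, in which 1.44% were called higher. The probe at chr18:61289398-61289758, which crosses a junction, read -0.91, -1.09 and -1.20 against -0.37, -0.53 and -0.60, a difference of 0.56 (adjusted p = 0.0797 over probes, limma). It followed the brightest probe closely over the arrays (r = 0.990, 6 arrays). The probe at chr18:61269422-61269481, which starts at base 483 of the transcript against base 3465 for the brightest, read -0.52, -0.46 and -0.28 against -0.39, -0.43 and -0.33. Its groups overlapped, the difference was 0.038 (adjusted p = 0.868 over probes, limma) and no control array had it well above background. Its sample channel, taken alone, was at least 1.16-fold higher in the mutants (0.21 on the log2 scale). This bound sets the mutant mean against the lowest signal well above background. It leaves out a reference channel higher in the mutants by 0.23. Since the probe met the filter on the mutant arrays alone, the direction of the bound is partly set by that filter.

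Csf1r stood close to the threshold and was called in 7 of 21 alternatives, with differences of 0.45 to 0.82 and adjusted p from 1.0e-04 to 0.579. The mean of its 3 probes gave 0.45 (adjusted p = 0.0814 by limma), and the call was also lost without any one of controls 1 and 2 and mutants 1, 2 and 3 (0.65 to 0.81, adjusted p 0.0684 to 0.180).

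Cd14, the co-receptor that hands bacterial lipopolysaccharide to Tlr4, had the tightest controls of the 8. Its ratios were -2.49, -2.43 and -2.47 on the controls and -1.25, -1.73 and -1.84 on the mutants, with mutant 1 the highest and no overlap. The difference of 0.85 (standard error 0.18, 1.81-fold) missed the threshold (adjusted p = 0.0646 by limma), with a 95% confidence interval of 0.42 to 1.28. Without mutant 1 the difference was 0.67 and passed (adjusted p = 0.0487, limma, within a range of 2.7e-04 to 0.648 over 21 alternatives). Cd14 was called in 3 of the 21. The low end of the range came from array weights, a fit that called 11556 of 20564 genes. The probe lies at chr18:36884969-36885028 on the minus strand.

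Fcgr3, the low-affinity Fc receptor for immunoglobulin G, was measured by 2 probes. The brighter, at chr1:172981647-172981722 across a junction, read -0.14, -0.26 and -0.78 on the controls and 1.05, 0.30 and 0.19 on the mutants, a difference of 0.90 with a standard error of 0.29 (adjusted p = 0.138 by limma). The dimmer probe, whose sequence is given above, read -1.34, -1.42 and -1.65 against 0.33, -0.52 and -0.51, a difference of 1.24 (standard error 0.26, adjusted p = 0.0613 over probes). On both probes mutant 1 was the highest and the groups did not overlap, and the probes tracked each other (r = 0.968, 6 arrays). The inhibitory receptor gene Fcgr2b, a close relative of Fcgr3 in sequence, read -2.32, -2.34 and -3.22 against -0.61, -1.48 and -1.46, and whether its transcript reached the Fcgr3 probes was not tested.

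Itgam, the alpha subunit of the complement receptor integrin, was dim. Its brighter probe at chr7:135261475-135261534 read 0.49, 0.67 and 0.31 on the controls and 2.04, 0.78 and 0.82 on the mutants. It exceeded background clearly on 2 of the 3 controls and on all mutants, with unnormalized sample signals of 90 to 254 in the controls, 810 on mutant 1 and 286 to 307 on mutants 2 and 3. The difference was 0.72 with a standard error of 0.35 (adjusted p = 0.267 by limma), and without mutant 1 it was 0.31 (adjusted p = 0.304, within a range of 0.0997 to 0.776 over 20 alternatives). The second probe, at chr7:135260933-135260993, read 0.52, 0.30 and 0.14 against 1.90, 0.70 and 0.37, and its groups overlapped.

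Mrc1, the mannose receptor, had the largest difference of the 8, 1.59, and did not pass the test (standard error 0.53, adjusted p = 0.150 by limma). Its ratios were 2.24, 2.11 and 0.23 on the controls and 2.97, 3.17 and 3.20 on the mutants. The mutants were tightly grouped and above every control, while control 3 lay far below the other controls. Without control 3, which is also the fit within the first scan day, the difference was smaller, 0.94, and passed (adjusted p = 0.0204, limma). The range over the 21 alternatives was 0.94 to 1.94 for the difference and 2.2e-04 (with array weights) to 0.628 for the adjusted p. Mrc1 was called in 4 of the 21, with the fit without control 3 and the identical scan day fit counted separately. The probe lies at chr2:14253304-14253364 on the plus strand.

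Cd163, the receptor that takes up haptoglobin with bound haemoglobin, behaved like Mrc1. It read 3.34, 2.72 and 0.95 on the controls and 3.57, 4.0 and 3.90 on the mutants, again with control 3 the lowest and no overlap. The difference of 1.48 had a standard error of 0.59 (adjusted p = 0.195 by limma). Without control 3 it was 0.79 (adjusted p = 0.103, within a range of 8.1e-04 to 0.652), and with the scanner software's own background subtraction and dye normalization it was 0.68. Cd163 was called in 2 of 21 alternatives. Its reference signal was low, 73 to 225 units, and the reference channel was 0.66 higher in the mutants beside 2.14 for the sample channel. The probe lies at chr6:124280484-124280543 on the plus strand.

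Aif1, which encodes Iba1, was the exception. Its brighter probe, at chr17:35307959-35308018, read 0.34, 0.04 and -0.43 on the controls and 0.50, -0.47 and -0.63 on the mutants, a difference of -0.18 with a standard error of 0.35 (adjusted p = 0.772 by limma). The second probe, whose sequence is given above, read 0.33, 0.14 and -0.32 against 0.43, -0.55 and -0.73 (difference -0.33, adjusted p = 0.579 over probes). On both, mutant 1 was the highest array, mutants 2 and 3 were the lowest, and the groups overlapped. The 95% confidence interval of the brighter probe's difference was -1.03 to 0.66. Its sign turned without mutant 3 (0.029, adjusted p = 0.975 by limma). With control 3 and mutant 1 both left out the difference was -0.74 and passed (adjusted p = 0.00930), within a range of 0.00219 to 0.995 over the alternatives. That fit keeps only the 2 near-identical pairs of arrays, and it called 7729 of 20555 genes, 4087 of them lower.

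Over all 13 probes, 11 differences were positive, 2 probes were called, and on 9 the mutants lay wholly above the controls, against 19.7% of all tested probes. The plot of both dye channels shows where the differences arose. For the 8 genes the sample dye had a median difference of 0.96 and the reference dye one of 0.053, against -0.00035 and -0.027 for all genes.

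**Figure D2:**
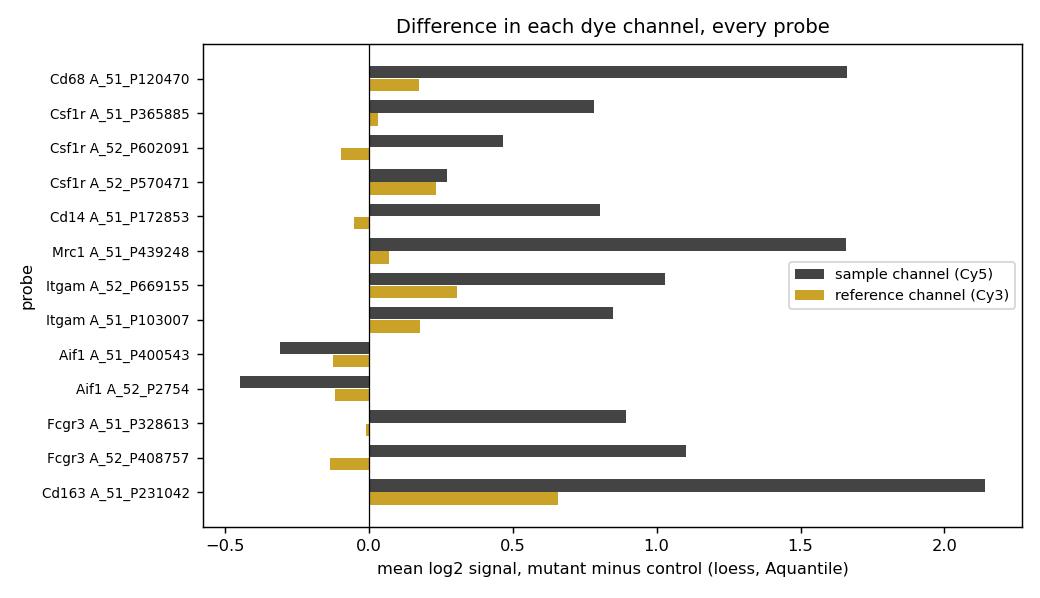
Mean log2 signal of the mutants minus that of the controls (horizontal axis, after loess and Aquantile normalization) for each of the 13 probes (vertical axis), with the sample dye in grey and the reference dye in yellow. The sample channel carries the larger difference on each probe, from 2.14 for Cd163 to -0.45 for the second Aif1 probe, and the reference channel reaches 0.66 for Cd163.

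Among themselves the 8 genes followed different patterns over the arrays, a description of 6 points per gene that share the reference RNA, the slides and the near-identical pairs. Csf1r, Cd14, Fcgr3 and Itgam were highest on mutant 1. Mutant 1 exceeded the mean of mutants 2 and 3 by 1.23 for Itgam, 1.05 for Aif1, 0.81 for Fcgr3, 0.54 for Cd14 and 0.29 for Csf1r, whereas for Cd68 it lay 0.46 below them (-0.46). Correlations among Csf1r, Cd14 and Fcgr3 were 0.926 to 0.968. Mrc1 and Cd163 instead followed control 3, which lay below the mean of the other controls by 1.94 for Mrc1 (-1.94) and 2.08 for Cd163 (-2.08). Cd68 and Aif1 correlated at -0.315.

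Other cells' markers moved over the same arrays. The mean ratio of 14 neutrophil genes, from S100a8 to Cd177, was 0.63, 0.67 and 0.04 on the controls and 3.78, 2.37 and 2.12 on the mutants, again highest on mutant 1. All 14 were positive, with a median difference of 2.14 (1.25 without mutant 1). Of the 14, 6 (Retnlg, Fpr1, Mmp8, Ngp, Csf3r and Fpr2) had no control array well above background and entered the test through the mutant arrays alone, so their sign and the median are partly set by that filter. By limma 4 of the 14 rose, and 8 without mutant 1. The 4 were S100a8, a subunit of calprotectin that keratinocytes also make (7.85, adjusted p = 0.00340 by limma), Retnlg (3.69, adjusted p = 0.00598), Cd177 (2.41, adjusted p = 0.0310) and the formyl peptide receptor gene Fpr1 (2.35, adjusted p = 0.0370). Taken alone, the sample channel of Retnlg was at least 28.9-fold and that of Fpr1 at least 6.30-fold higher, bounds that leave out a reference channel higher in the mutants by 1.28 and 0.45. S100a8 and Retnlg passed with any one array left out. Fpr1 passed only without control 3 or mutant 1 and Cd177 only without control 3. Defining neutrophil genes were low or absent in places: Elane was not well above background on any array, and Ly6g has no probe. S100a9, the partner of S100a8, stood at 0.037 in the ratio, with the sample channel higher by 2.23 and the reference channel by 2.19. The part of neutrophils in the values of Itgam, Fcgr3 and Cd14 was not tested.

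Control 3 stood low for stromal and glandular markers as it did for Mrc1 and Cd163. The mean of the 10 fibroblast genes was -0.84, -1.03 and -2.60 on the controls and -0.69, -0.97 and -0.95 on the mutants. That of the 9 endothelial genes was 2.21, 2.09 and 0.90 against 2.44, 1.69 and 1.62. The 13 genes of the glandular stomach, a neighbouring tissue, averaged 3.66, 3.48 and 0.61 on the controls and 2.10, 3.46 and 3.19 on the mutants. The median fibroblast difference was 0.71 with all arrays and 0.14 without control 3, and the endothelial one 0.25 and -0.12 (0.060 without mutant 1). For the 8 macrophage genes the median was 0.88 with all arrays, 0.75 without control 3, 0.66 without mutant 1 and 0.64 without both. The part of the stromal and glandular share in the values of Mrc1 and Cd163 was not tested.

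**Figure D3:**
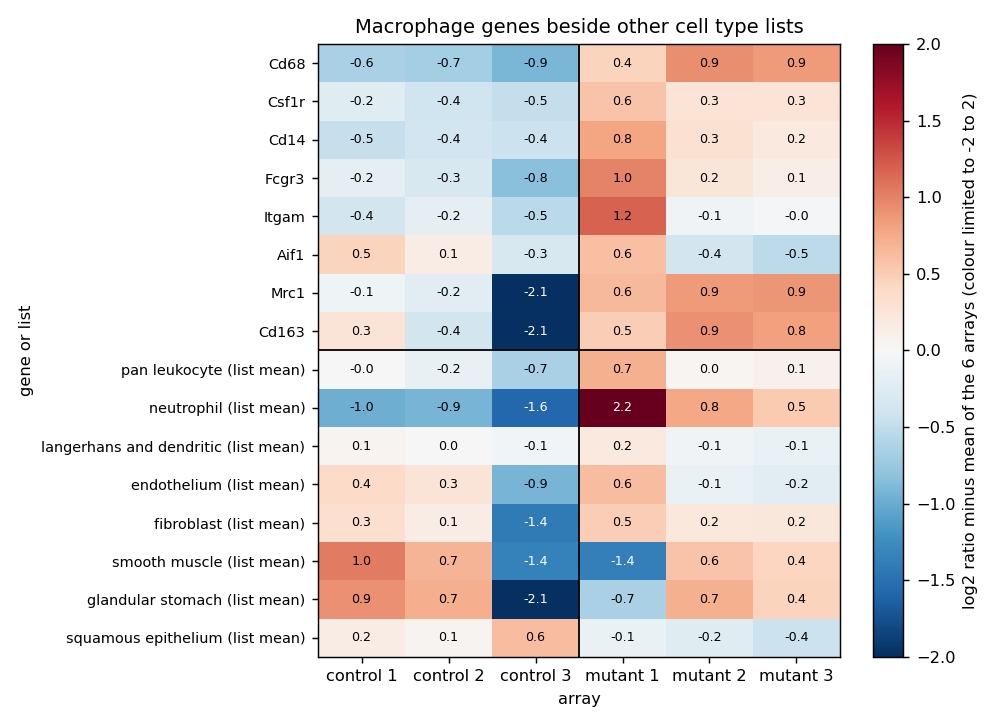
Log2 ratio minus the mean of the 6 arrays, as colour and number, for the macrophage genes (upper rows) and the mean of each marker list (lower rows) on each array (columns). Mutant 1 stands out for Itgam, Fcgr3 and the neutrophil list, control 3 for Mrc1, Cd163, fibroblast and glandular stomach genes, and control 3 and mutant 1 alike for smooth muscle genes.

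The 28 other macrophage genes that could be tested were mostly positive and none was called. Of them 24 were positive, the median difference was 0.47, and in 16 the mutants lay wholly above the controls, against 3 wholly below. Without control 3, 21 were positive with a median of 0.35, and without mutant 1, 23 with one of 0.39. With both arrays left out 18 were positive and the median was 0.33. The smallest p-values belonged to Ncf4, a subunit of the phagocyte oxidase (0.68, adjusted p = 0.0733 by limma), to the complement receptor gene Vsig4 (0.73, adjusted p = 0.0753, not well above background on any control) and to Lyve1, a hyaluronan receptor of resident macrophages and lymphatic vessels (2.38, adjusted p = 0.0905). Lyve1 read 2.47, 2.23 and 0.20 on the controls and 3.95, 4.18 and 3.90 on the mutants, the same low control 3 as Mrc1 and Cd163, and without control 3 its difference was 1.66 (adjusted p = 0.0103). The complement genes C1qa, C1qb and C1qc stood at 0.49, 0.44 and -0.20, and Adgre1, which encodes F4/80, at 0.31. Timd4 and C5ar1 were too dim to test.

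None of the 12 ligands, receptors and factors around Csf1r that could be tested passed, and 7 were positive (5 without mutant 1). The ligand gene Il34, made by keratinocytes, read 1.47, 1.29 and 1.86 on the controls and 2.47, 2.37 and 2.20 on the mutants, a difference of 0.81 (adjusted p = 0.0749 by limma). The other ligand gene, Csf1, differed by 0.55 (adjusted p = 0.19). The myeloid and epithelial factor gene Cebpb was lower on every mutant, by 1.18 on average (-1.18, adjusted p = 0.0642). Around Cd14, 11 of 17 Toll-like receptor pathway genes were positive and none was called, with Tlr2 at 1.45 (adjusted p = 0.127), Tirap at 0.81 (0.0757) and Tlr4 at 0.71 (0.153).

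Among the 14 Fc receptor and signalling genes, 11 had positive differences, the median being 0.59 (0.28 without mutant 1 and 0.33 without control 3), and none passed. Fcgr2b stood at 1.44 (adjusted p = 0.0852 by limma), the common signalling chain Fcer1g at 0.79 and the high-affinity receptor Fcgr1 at 0.74. Among 9 partners of Itgam 8 were positive, none called, with the adaptor gene Skap2 at 1.79 (adjusted p = 0.0713), the beta subunit Itgb2 at 0.57 and the ligand Icam1 at 0.86. The 13 tested genes of the scavenger and lectin receptor list did not all share the direction of Mrc1 and Cd163. Of them 6 were positive, and the median was -0.14. The list also holds Hp, Hpx (-0.31), Hmox1 (-1.25) and Cd5l (-0.64), which are not membrane receptors, so its median is not one of receptors alone. Cd36, which takes up lipids, stood at -1.85 (adjusted p = 0.115). The haptoglobin gene Hp stood at 2.30 (0.188, and 1.23 without mutant 1) and Msr1 at 0.91 (0.191).

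Around Cd68, 17 of 23 lysosomal genes were positive, the median was 0.26 and 1 rose: Ctsk, which encodes a collagen-degrading cathepsin, by 1.24 (adjusted p = 0.0247 by limma). Of activation genes, the alternative set had 8 of 11 positive with a median of 0.19, and 6 of 11 with one of 0.063 without control 3. In it Il13ra1, a receptor chain for interleukin 13, rose by 1.61 (adjusted p = 0.0211 by limma). The classical set had 7 of 11 positive with the inflammatory cytokine gene Il1b rising by 3.07 (adjusted p = 0.0283). The 13 monocyte recruitment genes had 12 positive and a median of 0.79 (0.57 without control 3, 0.54 without mutant 1 and 0.26 without both). Of them 1 was called, the chemokine gene Ccl8, which read -0.59, -0.69 and -1.31 on the controls and 1.93, 1.52 and 1.5 on the mutants (2.51, adjusted p = 0.00930). Ctsk, Il13ra1 and Il1b each lost the call without control 1, control 2, mutant 2 or mutant 3, and Ccl8 without control 2, mutant 2 or mutant 3. The positive difference of Ace in that list (0.58) rested on the reference dye, since its sample channel was lower in the mutants (-0.19), and the negative one of Arg1 in the alternative set (-0.85) turned positive in the sample channel (2.20). The 10 leukocyte genes common to all white cells were all positive with a median of 0.57 (0.33 without mutant 1 and 0.35 without control 3), and none was called.

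**Figure D4:**
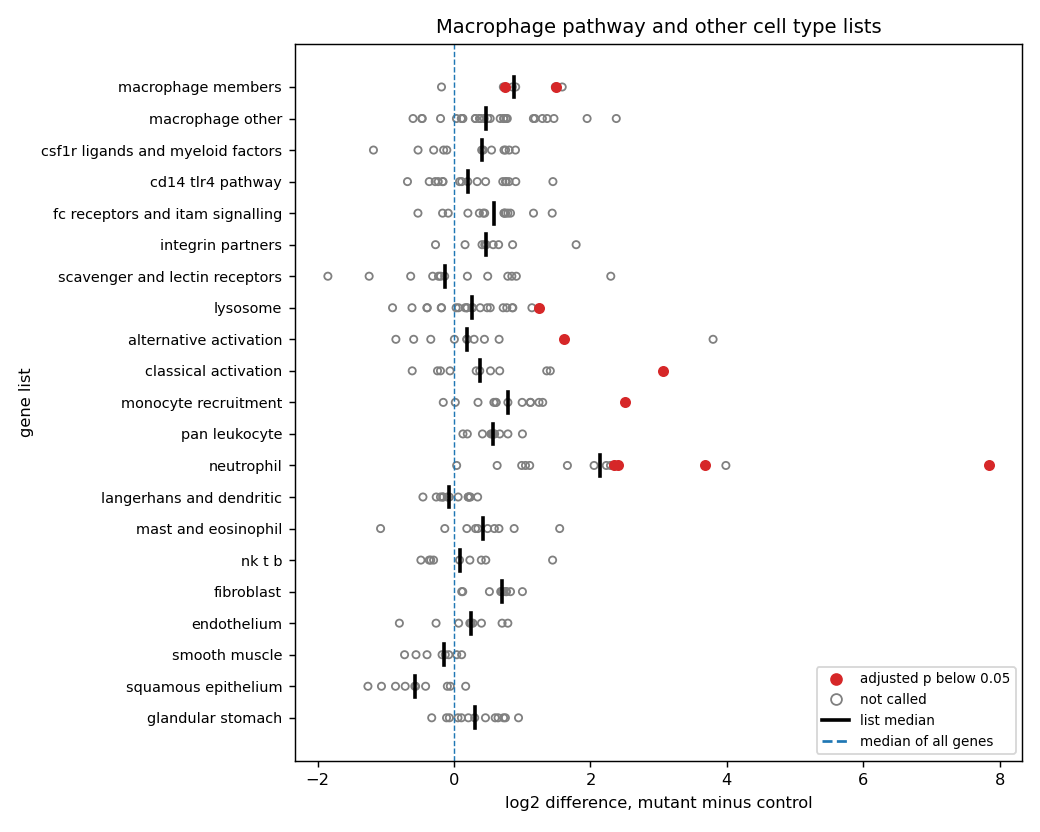
Log2 difference, mutant minus control (horizontal axis), of each tested gene in each list (rows), with red points for genes of an adjusted p below 0.05, a black bar at the list median and a dashed line at the median of all genes. The macrophage members have a median of 0.88, the neutrophil list one of 2.14 with 4 genes called, and the squamous epithelium list one of -0.57.

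The genes whose profile was nearest to that of Cd68 were not macrophage markers. Ranked by the root mean square difference of centred log2 ratios over the 6 arrays, of 20475 genes Aqp11 came first (0.0903), followed by Agpat2 (0.107), Pcdhb4 (0.119), Nptx2 (0.122) and Ddah2 (0.136). Among the other members Csf1r ranked 499, Cd14 613, Fcgr3 1183, Mrc1 1991, Cd163 3545, Itgam 5354 and Aif1 16971.

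**Figure D5:**
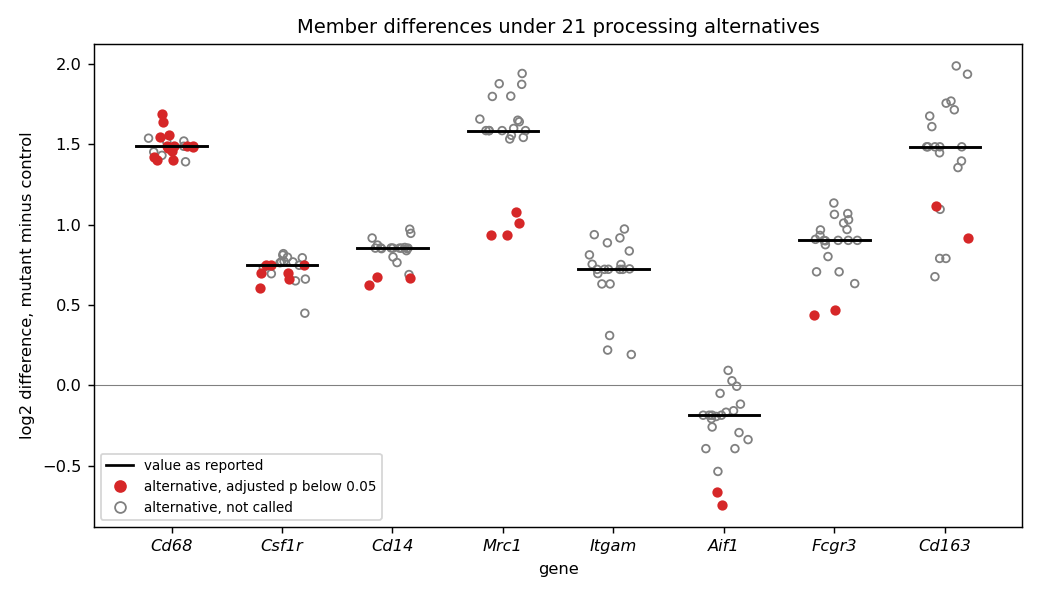
Log2 difference, mutant minus control (vertical axis), of each macrophage gene (horizontal axis) under the processing alternatives, with red points where the adjusted p was below 0.05 and a bar at the value given above. Cd68 stays between 1.39 and 1.69 and is called in 14 of 21, Itgam is called in 0 of 20, and Aif1 spans zero, from -0.74 to 0.094.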

How the data were processed

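The authors deposited spot intensity values straight from the scanner, as mean, local background and processed signals of each dye. Agilent Feature Extraction, per the file headers, was version 10.5.1.1 (control 3: 10.7.3.1), and version 9.1 in the submitters' processing notes. The log10 ratios of the scanner files, red over green per the file headers, served only for setting the deposited table against the scanner files. The authors also deposited log2 ratios of these arrays in a table; set against the scanner files it runs on the log2 scale as sample over reference, with column medians of 0.052, 0.06 and 0.026 for controls and 0.042, 0.043 and 0.039 for mutants. Its centring stays unknown, and no source used here gives its normalization. It served as an alternative.

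Signals were corrected with normexp (offset 50) and loess-normalized within arrays in limma 3.58.1 (R 4.3.3), leaving out control and outlier spots. The brightest probe in the sample channel stood for each gene. Of the 41174 probes, 32728 (79.5%) were named through RefSeq's GRCm38.p6 gene table and the rest kept the file's name; the members were taken by the file's name. Groups were compared with lmFit and eBayes on 4 residual degrees of freedom, two-sided, with Benjamini-Hochberg adjustment over all genes or all probes. The number of arrays limits the precision: an exact permutation test of 3 against 3 cannot give a p below 0.1. "At least" folds set the bright group's mean sample channel, after loess and Aquantile, against the lowest signal well above background, and are open to dye bias since dyes were not swapped. The script was tested on simulated data. That simulation drew independent noise for each array, so it does not cover the near-identical pairs or the shared slides of these arrays. Same-numbered arrays deviated together with correlations of 0.00466, 0.0195 and 0.126, so the numbers were not taken to pair the samples.

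The members, the gene lists and the alternatives were chosen with earlier results of these data known. Named are all members and their probes, Sox2, for each list the called genes and otherwise up to 3 genes with the smallest p, and the 5 genes nearest to Cd68. Named outside that rule, after their values were seen, were the complement genes C1qa, C1qb and C1qc, Adgre1, S100a9 and genes too dim to test. The same holds for Mmp8, Ngp, Csf3r, Fpr2, Hpx, Hmox1 and Cd5l.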

Additional observations from a re-analysis of the deposited data

How the results depend on the processing

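The median difference of the macrophage genes ran from 0.64 to 1.05 over the 21 alternatives. In each it moved from the reported 0.88 by less than 0.34, the SD of the member median between arrays. The number of the 8 genes called higher, 2 as reported, was 1 (Cd68) with the scanner software's processed signals, a normexp offset of 16, scale normalization, the sample channel alone, the authors' deposited table of log2 ratios and the mean of all probes. It was 6 without both control 3 and mutant 1, where 17.7% of all genes were called higher. With array weights (from 0.0769 for control 3 to 7.64 for mutant 3) it was also 6, against 27.4% of all genes. In both fits Aif1 was called lower (-0.74 and -0.66, adjusted p = 0.00930 and 0.00219 by limma). The first keeps only the 2 near-identical pairs of arrays, and in the second control 3 and mutant 1 had the lowest weights. The number was 0 with near-identical arrays averaged and with the slide as a random block. Member probes called, 2 as reported, numbered 1 with processed signals, offset 16, scale normalization, the sample channel alone and the deposited table, 10 without both arrays, 10 with array weights, and 0 with averaged arrays and with the slide block. Genes called over all, 580 as reported, numbered 223 with processed signals, 300 in the sample channel alone, 7729 without both arrays, 11556 with array weights, 1481 with the scan day as a term, 4 with the slide block and 0 with averaged arrays, where limma gave 2191 at an unadjusted p below 0.05. With 1 array left out the ranges were 0 to 3 members, 0 to 3 member probes and 34 to 1481 genes. The difference of Aif1 reversed to 0.029 without mutant 3, within -0.53 to 0.029 over the fits that leave out 1 array, and to 0.094 with averaged arrays. The causes of these changes were not tested.

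With the replicate number as a block, 0 members, 0 member probes and 131 genes were called; Cd68 stood at 1.49 (adjusted p = 0.0592) and Csf1r at 0.75 (0.0955, limma). The numbers do not pair the arrays by their labels, and each of the 8 differences kept its size because the design is balanced. The 3 arrays of each genotype, 2 near-identical pairs among them, and the dim reference signal of Mrc1, Cd163 and Itgam limit the precision.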

Other observations

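Aside from the neutrophil list, with 4 genes called, lists of other leukocytes that the sheets could hold gave 0 called genes each by limma. Langerhans and dendritic cell genes had a median of -0.070 (-0.15 without mutant 1 and -0.023 without control 3), 6 of 13 being positive. The Langerhans lectin gene Cd207 stood at -0.46 (adjusted p = 0.251) and H2-DMa at 0.23 (0.251). H2-Ab1 stood at -0.26 (0.230), with its sample channel higher by 0.60. The mast cell and eosinophil list had a median of 0.42, 8 of its 10 genes being positive. The IgE receptor gene Fcer1a read 0.86, 0.93 and 0.27 on the controls and 1.59, 2.51 and 2.60 on the mutants (adjusted p = 0.0646), highest on mutants 2 and 3 as Cd68 was. Ccr3 stood at 0.59 (0.139), and Siglecf went the other way, at -1.08 (0.363). Without control 3 Siglecf stood at -1.89 (adjusted p = 0.0143, limma). Without control 3 that list's median was 0.057. Natural killer, T and B cell genes had a median of 0.080 (-0.0023 without control 3), 5 of 9 being positive. For squamous epithelium 1 of 10 genes was positive and the median was -0.57 (-0.38 without control 3), but with the sample channel alone it was 0.013, so that its direction was not shared by the sample dye. The 8 smooth muscle genes had a median of -0.15, with 2 positive, which was 0.38 without mutant 1 and -0.92 without control 3. The 13 glandular stomach genes had one of 0.30, with 10 positive, which was 0.80 without mutant 1 and -0.64 without control 3. With the sample channel alone the glandular median was -0.41, with 4 positive.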
